A study of Mus musculus with 2 samples.

Results

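Neutrophil-like cells without Arg1 transcript were examined in mouse bone marrow cells cultured opposite human mesenchymal stem/stromal cells (MSC). They are 81 of the 3005 cells kept from the coculture library, 2.70% (exact binomial 95% interval 2.15 to 3.34%), and 81 of 4822 cells kept in the series. The cells were chosen by measured values. UMIs (unique molecular identifiers) mark single captured transcripts. Barcodes were kept at 500 genes or more and no more than 10% of UMIs from mitochondrial (mt-) genes, and a kept barcode was a member if it met 5 conditions. S100a8 and S100a9 together made up at least 0.5% of its UMIs, Ltf, Camp and Ngp together stayed below 0.3%, and Prg2, Epx and Prg3 together below 1%. Elane and Prtn3 together had fewer than 20 UMIs, and Arg1 had 0. Those 11 genes are therefore given below as descriptions of the choice and not as results.

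The study holds 2 libraries of sorted, viable cells from C57BL/6NCrljOri (H-2b) mice, 1 per group, and the age of the mice is not given in the sources used here. Femur marrow was cultured in both groups over 5 days in 40 ng/mL GM-CSF, a cytokine that drives myeloid growth. In the coculture, human MSC lay in inserts with 0.4 µm pores, 1 MSC to 5 marrow cells, seeded 24 h beforehand, so soluble factors could cross and cells could not. From the coculture the CD11bmidLy6Cmid gate was sorted, and from the culture without MSC the CD11bhiLy6Chi gate. The labels name RPMI1640 for marrow culture and DMEM for the coculture, so gate, MSC, medium and library differ together and cannot be told apart. Nothing in the labels says how many mice were pooled.

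Neutrophils are short-lived phagocytes that store antimicrobial proteins in granules made in sequence during maturation, and S100a8 and S100a9 encode the calcium-binding pair that fills much of their cytosol. Mature cells carry the chemokine receptor Cxcr2 and the G-CSF receptor Csf3r, and make the gelatinase Mmp9 and the collagenase Mmp8. Arg1 encodes arginase 1, which consumes L-arginine, the amino acid that T cells need to proliferate. Arginase-bearing neutrophils and monocytes are described as myeloid-derived suppressor cells, and GM-CSF is a known inducer of the gene.

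The coculture library held 29217182 UMIs over 3134 barcodes and the other 28294186 over 2180. The members had a median of 4761 UMIs (910 to 24815) and 1644 genes per cell. The libraries share 4 barcode sequences, and 0 of them belong to members. Each group is 1 library, so nothing was tested across samples and the comparisons have no replicate check. Levels are UMIs summed over the cells of a class and scaled by the class total to CPM. Their exact Poisson 95% intervals, and the exact conditional binomial intervals of ratios, cover counting error only and not the spread between cells. A kit reading transcript 3' ends counts molecules, so CPM are not scaled by length.

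The edges of the choice were thinly filled. Just inside the S100 limit (0.5 to 0.75%) lay 2 members, with Mmp8 at 768 CPM and Retnlg at 0, and just outside (0.25 to 0.5%) lay 3 cells, with Mmp8 at 188 CPM and Retnlg at 0. The Ltf, Camp and Ngp limit had 3 members just inside (0.2 to 0.3%) and no cell between 0.3 and 0.4%. No member had more than 0.325% of Prg2, Epx and Prg3 or more than 15 Elane and Prtn3 UMIs. Arg1 was the limit with most cells next to it. A single Arg1 UMI kept 25 cells out and 2 UMIs kept 24 out.

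The label was checked against neutrophil markers that did not choose the cells. Of 10 such genes, 9 were at a higher level in the members than in the 2633 remaining cells of the coculture. Retnlg, a secreted protein of granulocytes, stood at 3732 CPM against 66.0 in those cells, and Mmp8 at 1779 against 103. Mmp9 was at 770 against 33.9, Cxcr2 at 356 against 43.2 and Csf3r at 146 against 8.24. The decoy receptor gene Il1r2 was at 617 against 91.9, and Wfdc21, a secreted whey acidic protein family member, at 2646 against 92.9. Hdc, the histamine-making enzyme that basophils also use, was the exception, with 205 CPM in the members and 473 in the remaining cells. The 10 genes held a median of 0.877% of a member's UMIs, and 1 member had none of them.

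**Figure D1:**
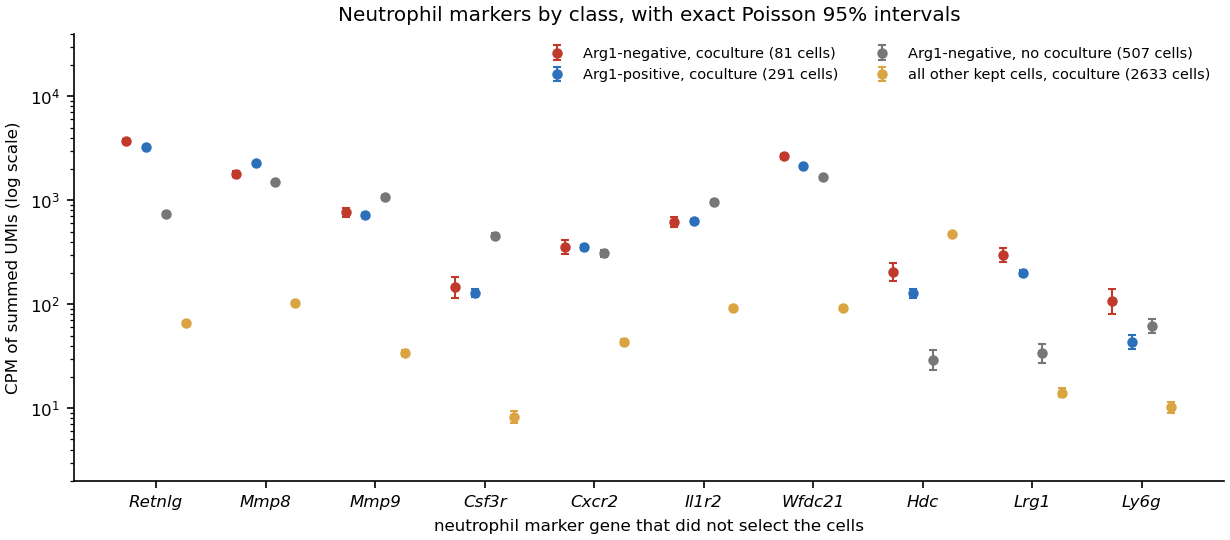
CPM of 10 neutrophil markers (log axis) in the 81 Arg1-negative and 291 Arg1-positive neutrophil-like cells of the coculture, the 507 Arg1-negative cells without coculture and the 2633 remaining coculture cells, with exact Poisson 95% intervals. The Arg1-negative and Arg1-positive cells of the coculture lie within 2-fold for 9 genes and apart for Ly6g (107 against 43.6), and the remaining cells lie lower for each gene but Hdc.

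Marker use was uneven between members. Mmp8 was found in 61 of 81 cells, at a median of 16.2 per 10000 UMIs and at most 134. Retnlg was found in 33 of 81, at a median of 0 and at most 584 per 10000 UMIs. Both were found in 27 members and neither in 14. In coculture cells with at least 5 Cd79a and Cd79b UMIs, which as B-lineage cells should lack them, Retnlg UMIs were seen in 1.89% of 899 cells and Mmp8 in 1.00%, at a median of 2906 UMIs. The 33 members with Retnlg were deeper than the rest (medians of 5614 and 4008 UMIs) and richer in S100a8 and S100a9 (9.33 and 5.91%). Thinned to 1000 UMIs, 31.2% of 80 members had a Retnlg UMI, against 41.7% of 288 Arg1-positive cells and 14.8% of 493 cells without coculture.

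Markers of other cell types were mostly concentrated in few cells. Basophil or mast cell markers had the largest sum, 2190 CPM in the members, 1277 in Arg1-positive cells and 53.2 without coculture. B-lineage markers came to 597, 147 and 72.0 CPM, and macrophage markers to 697, 2630 and 375. Of the members, 9 (11.1%) had at least 0.5% of their UMIs in the markers of another type, against 61 of 291 Arg1-positive cells and 0 of 507 without coculture. Those 9 had a median of 14641 UMIs, against 4388 in the other members. The 507 cells were chosen with less than 0.05% of UMIs in 5 of the macrophage markers (below), so their 0 was in part set by that choice. B-lineage markers reached 0.5% in 4 members, basophil or mast cell markers in 4, macrophage markers in 1 and megakaryocyte markers in 1. Prss34, a basophil protease, had 683 UMIs in 10 members, 39.7% of them in 1 cell, and C1qa, a complement gene of macrophages, 33 UMIs in 2 cells, of which 1 cell held 97.0%. The macrophage genes Mrc1 and Ms4a7 had 0 UMIs, and no member had more than 2 UMIs over Mrc1, Lpl, Gpnmb, Ctsk and Atp6v0d2. T cell markers came to 5 UMIs in all. No doublet caller was run, and whether droplets with more than 1 cell make up these members was not tested.

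How many neutrophil-like cells lack Arg1 depended on how deeply a cell was read. Of the 372 cells that met every other condition, 81 had no Arg1 UMI, 21.8% (17.7 to 26.3%). By depth the share was 45.0% in cells under 2000 UMIs (9 of 20), 40.3% between 2000 and 4000 (25 of 62), 24.3% between 4000 and 8000 (26 of 107) and 11.5% in cells of 8000 or more (21 of 183). Thinning every cell to 1000 UMIs gave 39.9% (147 of 368), of which 67 had Arg1 before thinning, and thinning to 2000 gave 29.8%. The Arg1-positive cells had a median of 20 Arg1 UMIs (1 to 388) and an Arg1 level of 3420 CPM. Their median depth was 8749 UMIs, against 4761 in the members, and how many members hold Arg1 transcripts that were not captured was not tested. In the B-lineage cells, which should lack the gene, 1.45% had an Arg1 UMI.

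**Figure D2:**
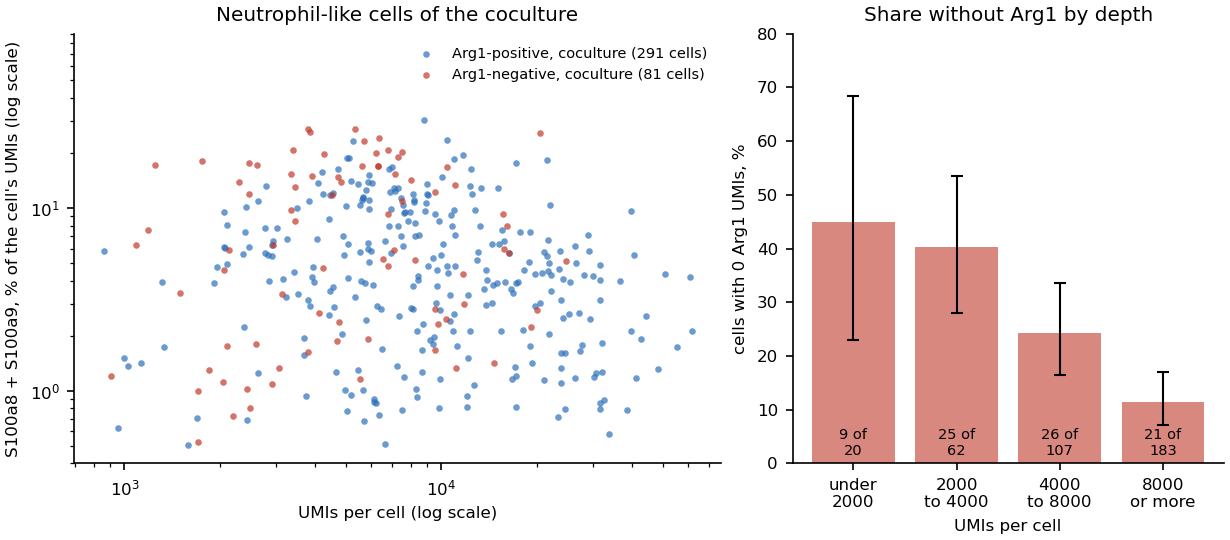
Left, UMIs per cell against the share of UMIs in S100a8 and S100a9 (both log axes) for 81 Arg1-negative and 291 Arg1-positive neutrophil-like cells of the coculture. Right, percent of those cells with 0 Arg1 UMIs by UMIs per cell, with exact binomial 95% intervals and cell counts on the bars, from 45.0% under 2000 UMIs to 11.5% at 8000 or more.

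The members spread over a wide S100 range. S100a8 and S100a9 together made up 0.526 to 27.1% of a member's UMIs, with a median of 6.27%, against medians of 4.31% in Arg1-positive cells and 14.1% without coculture. In 48 members the share was 5% or more, in 14 it was 2 to 5%, in 15 it was 1 to 2% and in 4 it was below 1%. The 48 cells rich in S100 had Cd177 at 447 CPM, a granule membrane protein of neutrophils, while the 14 cells at 2 to 5% had 126 and the 15 cells at 1 to 2% had 41.0. Lcn2, the iron-scavenging protein of specific granules, went from 2673 to 1497 and 1791 CPM over those groups, and Csf3r from 143 to 58.9 and 273. Ly6g, the surface protein that marks mouse neutrophils, was found only in the richest group, at 174 CPM. Pf4, a platelet gene, was at 99.3, 1371 and 287 CPM over the same 3 groups, from 13, 7 and 6 cells. A single member, in the 2 to 5% group, held 48.4% of all Pf4 UMIs of the members. Prss34 was at 335, 2548 and 3705 CPM, from 5, 3 and 1 cells.

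By UMIs the leading genes of the members, outside the genes of the choice and with ribosomal and mitochondrial genes set aside, were Fth1 (ferritin heavy chain, 38279 CPM), Malat1 (a nuclear noncoding RNA, 18869) and Ifitm1 (an interferon-inducible membrane protein, 12405). Tmsb4x, which binds actin monomers, followed at 11924 and the chemokine gene Ccl6 at 11371. Fth1 was found in all 81 members, Ccl6 in 79 and Ifitm1 in 68. Srgn, the proteoglycan core that packs granule proteins, was at 3465 CPM in 80 members.

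Against the Arg1-positive cells of the same library, 7628 genes were measured (10 CPM or more and at least 20 UMIs in either class). Of these, 184 had a level 2-fold or more higher in the members, 2.41%, and 544 at least 2-fold lower, 7.13%, with a median log2 ratio of -0.09. The minimum took in lower genes more easily. In the members 20 UMIs are 38.3 CPM, while in the larger Arg1-positive class 10 CPM are already 36.9 UMIs. At a minimum of 50 CPM the split was 30 higher and 67 lower. Arg1 chose both classes, so these values describe what went with it and support nothing further. Among named genes the highest in the members included stefin, granule and B-lineage genes, and the lowest included genes of macrophages, platelets and matrix.

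Of the 16 measured secondary and tertiary granule genes 4 were at least 2-fold higher (Chil1, Cd177, Ceacam10 and Ly6g) and none lower, with a median log2 ratio of 0.48. Ceacam10 stood at 134 CPM against 58.0, a log2 ratio of 1.21 (0.80 to 1.60), and Cd177 at 310 against 155, a log2 ratio of 1.00. Pglyrp1, a granule protein that binds bacterial peptidoglycan, stood at 519 against 202 CPM and was found in 58 of 81 members, a log2 ratio of 1.36 (1.15 to 1.56). The ratio of Pglyrp1 fell below 2-fold with every cell weighing the same, thinned to 1000 UMIs, and in cells of 2000 to 6000 UMIs. Its lowest log2 ratio over 16 alternatives was 0.49. Ly6g rested on 1 cell. That cell held 64.3% of the 56 Ly6g UMIs, and without it the log2 ratio went from 1.30 to -0.17. Chil1 rested on 12 UMIs. The count of 4 was 0 when every cell weighed the same, 0 in cells of 2000 to 6000 UMIs, and 0 in cells with at least 5% S100a8 and S100a9. Mmp8 (log2 ratio -0.37), Mmp9 (0.10) and the 7 NADPH oxidase subunits, which make the oxidative burst (0.04 to 0.65, median 0.22), were all within 2-fold.

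Chemokine and macrophage genes were more often lower. Of 8 measured genes on the list of CXCR2 chemokines and receptors 3 were lower (Ppbp, Pf4 and Cxcl16) and none higher, median -0.43. Of those 3, Pf4 and Cxcl16 are chemokines but not CXCR2 ligands. Cxcl3, a neutrophil attractant, was at 2851 CPM in the members and 4720 in Arg1-positive cells, a log2 ratio of -0.73 (-0.80 to -0.65), while Cxcl2 was at 2834 and 3097. Of 12 measured macrophage markers 10 were lower, median -1.64. Fn1 (fibronectin) was at 270 against 1383 CPM, a log2 ratio of -2.36, and was found in 17 of 81 members and 209 of 291 Arg1-positive cells. Mmp12, the macrophage elastase, was at 57.4 against 549 CPM, and Mgl2, a lectin of macrophages and dendritic cells, at 7.66 against 255, all of its 4 UMIs in 1 member. In cells of 2000 to 6000 UMIs only 1 macrophage marker was at least 2-fold lower. The minimum of 20 UMIs applied to those smaller sums too, so fewer markers could be called. In Arg1-positive cells of 2000 to 4000 UMIs C1qa was at 18.1 CPM, in 1 cell. At 8000 UMIs or more it was at 245 CPM. The Arg1-positive cells carry more of these markers (2630 CPM over the 14 genes, against 697), and whether macrophage RNA in Arg1-positive droplets accounts for the gap was not tested.

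Among 22 measured suppressor-associated genes 3 were lower and none higher, median -0.20, where 7.13% of all measured genes were lower and 2.41% higher. Nos2, the nitric oxide synthase that also uses arginine, had 26.8 CPM in the members and 103 in Arg1-positive cells, a log2 ratio of -1.94 (-2.83 to -1.18), in 10 and 103 cells. With every cell thinned to 1000 UMIs its log2 ratio was -0.74. Ptgs2, the inducible cyclooxygenase, had 17.2 and 66.4 CPM (-1.95). The lipid carrier gene Fabp5 had 32.5 and 66.4. Vegfa, the vascular growth factor, was just within 2-fold at 176 and 345 CPM. Cd14 (1197 and 1281) and Ifitm1 (12405 and 12809) were near equal.

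Several other named genes with high ratios rested on few cells. Myl10, a myosin light chain, was at 67.0 CPM in 17 members against 14.6, a log2 ratio of 2.20, and 2.01 without its leading cell. Slc2a3 was found in 22 members at 123 CPM against 52.6 (1.22). Cebpa, a transcription factor of granulocyte precursors, was at 53.6 against 24.4 CPM, and its log2 ratio of 1.14 became 0.63 without its leading cell. All 6 measured B-lineage markers were at least 2-fold higher, with Cd79b at 59.4 against 14.4 CPM in 10 members (2.05), while 62 of 81 members had no B-lineage marker at all. Among the lowest were the platelet chemokine genes Ppbp (21.1 against 219, -3.38) and Pf4 (415 against 1712, -2.04). Of 3 measured platelet markers these 2 were lower and 1 was within 2-fold. The platelet marker sum, 461 CPM in the members and 1949 in Arg1-positive cells, consists mostly of these 2 genes and adds nothing separate. Abca1, which exports cholesterol, was found in 10 of 81 members and 137 of 291 Arg1-positive cells (-2.57). The heparan sulfate proteoglycan gene Sdc4 was found in 9 and 136 (-2.47). Slc7a2, a transporter of arginine, was found in 10 members at 21.1 CPM and in 111 Arg1-positive cells at 87.5. Sox4, a transcription factor of immature cells, was found in 3 and 113 (-3.70).

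**Figure D3:**
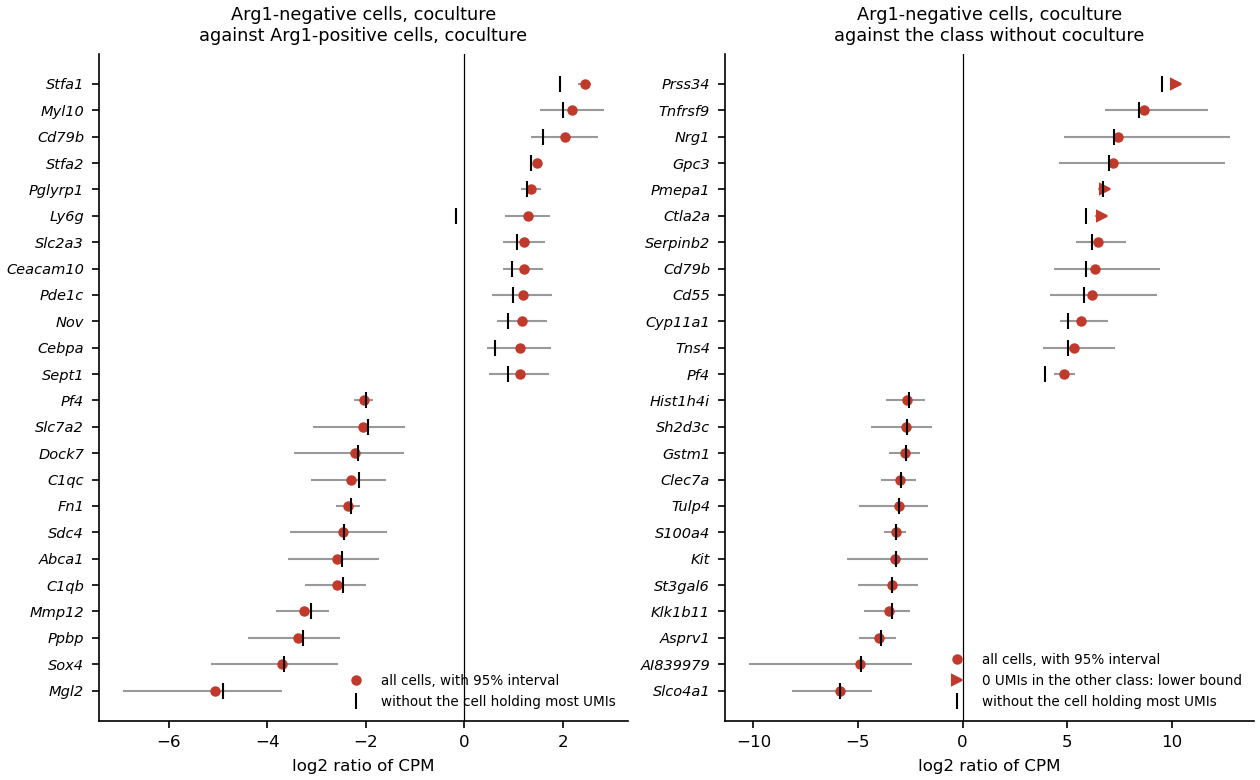
Log2 ratio of CPM of the 12 highest and 12 lowest named genes, Arg1-negative cells of the coculture against Arg1-positive cells (left) and against the class without coculture (right), with exact conditional binomial 95% intervals. Black ticks leave out the 1 cell that holds most UMIs of the gene in the higher class, which moves Ly6g from 1.30 to -0.17, and triangles are lower bounds for genes with 0 UMIs in the other class.

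Among genes at 50 CPM or more and found in at least 10% of the members, the highest ratio was that of Stfa1, of the stefin A family, inhibitors of cysteine cathepsins encoded side by side on chromosome 16. Apart from Stfa1, Stfa2, Stfa2l1 and BC100530 the family's genes were picked after the values were seen. Stfa1 stood at 1664 CPM in the members, 304 in Arg1-positive cells, 72.0 in the remaining coculture cells and 790 without coculture. It was found in 23 of 81 members at up to 162 per 10000 UMIs, 1 cell held 31.9% of its UMIs, and the log2 ratio to Arg1-positive cells was 2.45 (2.32 to 2.58), or 1.96 without that cell. Stfa2 stood at 3083 CPM in 48 members against 1102 in Arg1-positive cells, a log2 ratio of 1.48 (1.40 to 1.57). BC100530 stood at 6081 against 2971, Stfa2l1 at 3456 against 2111, and Stfa3 at 990 against 775. Gm5483 (9083 against 8194), 2010005H15Rik (1867 against 1764) and Gm5416 (124 against 125) differed little between those classes. Of the 23 members with Stfa1, 21 also had Stfa2, against 27 of the 58 without it, and the members with Stfa1 were deeper (medians of 7164 and 3978 UMIs). Retnlg and Stfa1 were found together in 6 members, 18.2% of the 33 with Retnlg, and Stfa1 in 35.4% of those without it. In Arg1-positive cells these shares went the other way (28.5 and 19.3%), and without coculture they were near equal (16.7 and 16.0%).

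Promoters of 7 of these 8 genes were in the RefSeq table (GRCm38.p6), and those of 3 are shown because the log2 ratio is high for Stfa1 and Stfa2 and near 0 for Gm5483 (RefSeq Cstdc4). They lie at chr16:36276898-36277197 on the plus strand (Stfa1), chr16:36408314-36408613 on the minus strand (Stfa2) and chr16:36183962-36184261 on the plus strand (Gm5483). Each run goes 5′ to 3′ on the gene's strand, from 250 bases before the start to 50 after it, and capitals mark matches to TTGCNNAA, a motif of C/EBP factors, or GAGGAAG, a core motif of PU.1, on either strand.
Stfa1: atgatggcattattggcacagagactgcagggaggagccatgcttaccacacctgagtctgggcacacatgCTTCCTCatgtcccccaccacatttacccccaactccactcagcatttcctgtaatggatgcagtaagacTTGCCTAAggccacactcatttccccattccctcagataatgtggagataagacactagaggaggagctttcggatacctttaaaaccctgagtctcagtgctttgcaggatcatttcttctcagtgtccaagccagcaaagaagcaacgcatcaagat
Stfa2: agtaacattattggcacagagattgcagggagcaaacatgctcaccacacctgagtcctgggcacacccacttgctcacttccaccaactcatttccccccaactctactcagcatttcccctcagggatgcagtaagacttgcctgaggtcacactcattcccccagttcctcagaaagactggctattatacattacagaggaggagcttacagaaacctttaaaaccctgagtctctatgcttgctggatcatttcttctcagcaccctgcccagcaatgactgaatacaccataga
Gm5483: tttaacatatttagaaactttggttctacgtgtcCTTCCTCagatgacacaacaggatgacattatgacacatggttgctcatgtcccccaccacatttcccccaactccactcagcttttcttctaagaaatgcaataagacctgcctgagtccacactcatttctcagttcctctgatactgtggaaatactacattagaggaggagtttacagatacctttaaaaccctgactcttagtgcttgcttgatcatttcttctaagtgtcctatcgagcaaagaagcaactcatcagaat
C/EBP and PU.1 are the leading transcription factors of granulocytes. Stfa1 held 1 match of each motif, Gm5483 held 1 PU.1 match, and Stfa2 held none. Of the other 4 promoters Gm5416 held 1 C/EBP match, while Stfa3, Stfa2l1 and 2010005H15Rik held neither motif. Over all 32851 promoters of this length 10.8% held the first motif and 13.6% the second. The promoter of Stfa1 was 80.3% identical to that of Stfa2 and 78.0% to that of Gm5483, and over 21 pairs identity ran from 55.0 to 91.7%. The last 300 bases of the GENCODE transcripts, where a 3' kit reads, were 98.7% identical between Stfa1 and BC100530, and 54.0 to 83.7% identical in the other 27 pairs. How reads were split between Stfa1 and BC100530 is therefore uncertain.

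Sorting Arg1-positive cells by their Arg1 share set the members beside cells with little and much of it, and the genes shown were picked after their values were seen. From 0 Arg1 (81 cells) through under 0.1% of UMIs (82 cells), 0.1 to 0.5% (140) and 0.5% or more (69), Stfa2 was at 3083, 1586, 1005 and 709 CPM. BC100530 was at 6081, 3687, 3073 and 1834 CPM, and Stfa1 at 1664, 287, 385 and 143. Fn1 ran the opposite way, at 270, 765, 1468 and 1974 CPM. Cxcl3 was at 2851, 2913, 5184 and 5971 CPM, and Vegfa at 176, 189, 347 and 541. The thrombospondin gene Thbs1 (3287, 3234, 5635 and 7912) and the transglutaminase gene Tgm2 (431, 512, 834 and 1319) were also highest in the cells with most Arg1. In Cxcl3, Thbs1, Tgm2 and Vegfa the members were thus close to the cells with least Arg1. Mmp8 (1779, 1897, 2392 and 2606) differed less, and Cxcr2 (356, 343, 341 and 399) and Mmp9 (770, 749, 676 and 780) hardly at all. Median depth was 4761 UMIs in the members and 8257 to 9012 in the other groups.

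**Figure D4:**
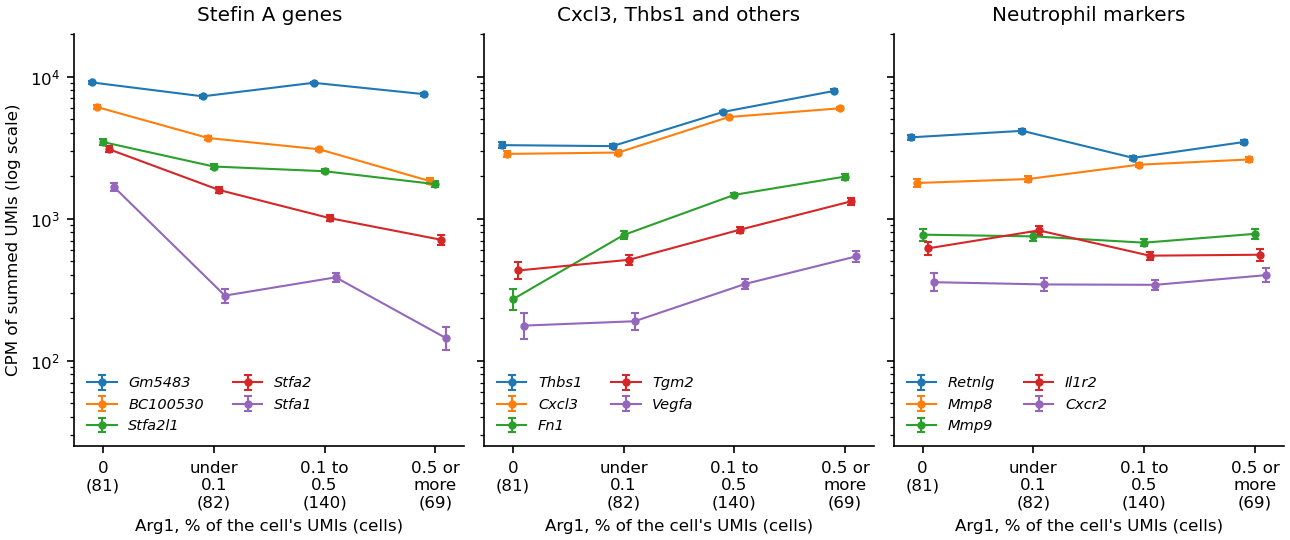
CPM (log axis) of stefin A genes, of 5 genes including Cxcl3 and Thbs1, and of neutrophil markers in neutrophil-like cells of the coculture grouped by Arg1 share, 0 being the 81 Arg1-negative cells, with exact Poisson 95% intervals. Stfa2 lies at 3083 CPM at 0 Arg1 and 709 at 0.5% or more, Cxcl3 at 2851 and 5971, and Mmp9 between 676 and 780 throughout.

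The second comparison sets the members beside 507 cells of the library without coculture that met the same conditions and had less than 0.05% of UMIs in Mrc1, Lpl, Gpnmb, Ctsk and Atp6v0d2. Before that limit 721 cells met the conditions other than Arg1, and 24 of them had an Arg1 UMI. All 24 were above the limit. All 81 members lay under that limit too, at most at 0.0295%. Under the limit the Arg1 condition removed no cell, and 0 of 507 allows a share of cells with an Arg1 UMI of up to 0.592%. Their median depth of 4552 UMIs was near that of the members. Here 7077 genes were measured, of which 596 had a level 2-fold or more higher in the members, 8.42%, and 746 a lower one, 10.5%, with a median log2 ratio of -0.05. The minimum again took in lower genes more easily, since 10 CPM are 27.1 UMIs in the class without coculture. At a minimum of 50 CPM the split was 320 higher and 230 lower, so which side is larger depends on the minimum. S100a8 and S100a9 held more of the UMIs without coculture (above). Scaled without the 11 genes and the mt- genes, the median went to -0.22 and the split to 453 higher and 1086 lower, and with TMM factors to 476 and 970.

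Of 28 measured genes of glycolysis and the hypoxia response, 15 were at least 2-fold higher in the members and none lower, with a median log2 ratio of 1.13. Hilpda, which coats lipid droplets, stood at 235 CPM in 43 of 81 members and 13.7 without coculture, a log2 ratio of 4.11 (3.57 to 4.68). Vegfa stood at 176 against 39.5 (2.16), Mif at 1034 against 258 (2.00) and Hif1a, the oxygen-sensing transcription factor, at 257 against 73.5 (1.80). Slc2a3, a glucose transporter, stood at 123 against 40.6 (1.59), while Ldha (1059 against 593) and Gapdh (3998 against 2952) were within 2-fold. The count was 11 to 17 over the alternatives, 14 with either other scaling and 15 without cells carrying markers of another type. Against the Arg1-positive cells of the same library only Slc2a3 was higher and Pfkfb3 lower, of 28.

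Of 20 measured suppressor-associated genes 9 were higher and 1 lower, median 0.97. Ifitm1 stood at 12405 CPM against 2700, a log2 ratio of 2.20 (2.15 to 2.25), and Clec4d, a C-type lectin receptor, at 521 against 166 (1.65). Il1b, encoding a pyrogenic cytokine, was at 394 against 121 (1.70), in 45 of 81 members and 111 of 507 cells. From the cytokine list, where 3 of 15 genes were higher and 1 lower, its antagonist Il1rn was at 381 against 137 (1.48). Cd14, the co-receptor for bacterial lipopolysaccharide, was at 1197 against 585 (1.03), and under 6 of 17 alternatives its ratio was below 2-fold. Irf8 rested on 9 members, 1 of which held 40.0% of its UMIs, and it was at 630 CPM in the B-lineage cells. Fabp5 was the gene that was lower, at 32.5 against 78.0. Nos2 had 1 UMI without coculture and 14 in 10 members, a log2 ratio of 6.18 with an interval of 3.46 to 11.58.

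The chemokine genes split. Cxcl3 stood at 2851 CPM in the members, in 67 of 81 cells at a median of 16.1 per 10000 UMIs, against 101 CPM in 54 of 507 cells without coculture, a log2 ratio of 4.82 (4.63 to 5.01). Cxcl2 stood at 2834 against 510 (2.47). Their receptor Cxcr2 was level, at 356 and 308. Ccl9 was higher at 965 against 185 (2.38), while Ccl3 (463 against 1024) and Ccl4 (63.2 against 262), attractants of monocytes and T cells, were lower. Ccl6 was the same at 11371 and 11602. Tnf was lower at 15.3 against 49.5 CPM, from 8 UMIs.

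Of 28 measured neutrophil identity genes 7 were higher and 4 lower, median 0.16. Lrg1, a secreted glycoprotein of granules, stood at 299 against 33.6 CPM, a log2 ratio of 3.15, and Retnlg at 3732 against 742 (2.33). Csf3r stood at 146 against 456 (-1.65). Of 16 granule genes none was higher and 4 lower, among them Lyz2 (lysozyme, 3094 against 16978, -2.46) and Hp (haptoglobin, 293 against 1045, -1.83). Of the stefin genes, Gm5483 was at 9083 against 2254 CPM (2.01), Stfa3 at 990 against 219 (2.18) and Stfa2 at 3083 against 942 (1.71). Stfa1 was at 1664 against 790 (1.07), and at 0.58 without its leading cell. With the Arg1-positive cells of the coculture added to the members, 372 cells in all, the log2 ratio was 0.52 for Stfa2, 0.40 for BC100530 and -0.74 for Stfa1. Receptors for GM-CSF differed by chain. The shared beta chain Csf2rb was at 888 against 299 (1.57), while the alpha chain Csf2ra was at 105 against 275 (-1.38). Csf2rb2, a beta chain of the IL-3 receptor and not of the GM-CSF receptor, was at 201 against 50.6 (1.99).

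The widest ratios came from genes nearly silent without coculture. Tnfrsf9, the costimulatory receptor 4-1BB, stood at 303 CPM in 22 members against 2 UMIs (0.739 CPM), a log2 ratio of 8.68 (6.80 to 11.74). Serpinb2, an inhibitor of urokinase, stood at 232 CPM in 31 members against 2.59 (6.49). Pmepa1, a target and brake of TGF-beta signalling, had 64 UMIs in 30 members and 0 without coculture, at least 6.79 on the log2 scale against a floor of 3 UMIs. Nrg1 (7.42) and Gpc3 (7.18) each had 1 UMI without coculture. All 5 were also present in Arg1-positive cells, Tnfrsf9 at 514 CPM and Serpinb2 at 282. Cyp11a1, a steroid-making enzyme of mitochondria, was at 151 against 2.96 CPM (5.68), with 38.0% of its UMIs in 1 of 10 members, and Ctla2a had 44.1% in 1 of 11. Cd55, an inhibitor of complement, was at 53.6 CPM in 12 members against 2 UMIs (6.18). Prss34 and Cd79b also rank among the highest, and they are markers of basophils and B cells held by few members. At the other end Slco4a1, an organic anion transporter, had 3 UMIs in the members and 340 CPM in 299 of 507 cells without coculture (-5.89). Asprv1, a protease of mature neutrophils and skin, was at 23.0 against 364 CPM (-3.99), S100a4 at 61.3 against 562 (-3.20) and the beta-glucan receptor Clec7a at 26.8 against 216 (-3.01).

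Of 14 measured interferon-stimulated genes 1 was higher (Ifitm3, 1853 against 665 CPM) and 4 lower, among them Slfn1 at 142 against 452, median -0.47. NF-kB pathway genes had 2 of 17 higher, median 0.56, and survival genes 1 higher and 3 lower of 20. Over all measured genes 8.42% were higher and 10.5% lower. MHC class II genes had 5 of 9 higher, with H2-Aa in 13 members, but 0 without the cells carrying markers of another type. S phase and mitosis genes had 7 of 11 higher, with Top2a at 93.8 against 9.98 CPM in only 6 members. The count was 0 after thinning and 0 among cells with at least 5% S100a8 and S100a9. The minimum of 20 UMIs applied to those smaller sums too, so fewer of these genes could be called. The 0 after thinning therefore does not tell whether the difference holds at equal depth. Against Arg1-positive cells MHC class II had 1 gene higher and 3 lower of 10 (Cd74, H2-DMb1 and Ctss, median -0.71), and S phase and mitosis genes 2 higher and 2 lower of 24. There the interferon list had 1 of 14 higher, the survival list 2 of 21 and the NF-kB list 0 of 18, with none lower in these 3 lists. Over all measured genes of that comparison 2.41% were higher and 7.13% lower.

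**Figure D5:**
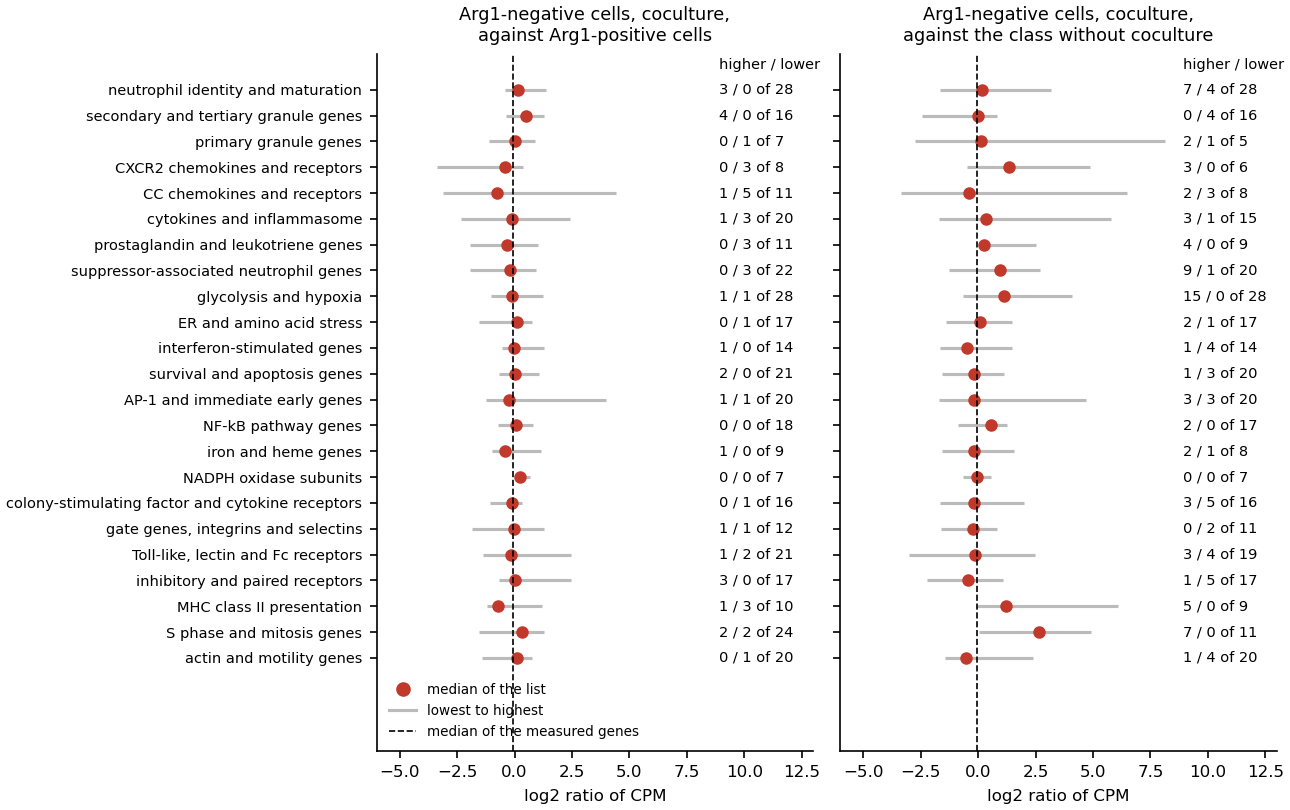
Log2 ratios of 23 gene lists, Arg1-negative cells of the coculture against Arg1-positive cells (left) and the class without coculture (right). Points are list medians, grey lines run from the lowest to the highest measured gene, the dashed line is the median of the measured genes (-0.09 and -0.05), and the numbers give genes at least 2-fold higher, lower and measured, such as 15 / 0 of 28 for glycolysis and hypoxia on the right.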

How the data were processed

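Marrow-derived mouse cells were profiled with 10x 3' single-cell libraries, 1 per group. The deposited values are raw UMI counts per gene and barcode, made by the authors with Cell Ranger and bcl2fastq on mm10, per the submitters' processing notes, and the matrix header gives software version 3.1.0, per the file headers. The libraries hold 29217182 and 28294186 UMIs, and 47224 of 47729 gene identifiers are in GENCODE M21. Barcodes under 500 genes or above 10% mt- UMIs were dropped, and no doublet caller was run.

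Counts were summed over the cells of a class and scaled to CPM. A gene was measured at 10 CPM and 20 UMIs in either class, and called at a 2-fold ratio. A class with 0 UMIs took a floor of 3 UMIs in ratios. Thinning drew 1000 UMIs per cell with seed 1. Work used Python 3.11.15, numpy 2.4.6, scipy 1.17.1, pandas 2.3.3, matplotlib 3.10.9 and Biopython 1.88, and edgeR 4.0.16 in R 4.3.3 for TMM factors only. The ratios were also computed on simulated class sums. Those were drawn with counting error only and no spread between cells, so they check the computation and not the ratios of real cells.

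The members and the 23 gene lists and 12 marker lists (488 of 491 genes in the files) were chosen with earlier results of these data known. Named genes are the 12 highest and 12 lowest per comparison with 50 CPM and a UMI in 10% of cells of the higher class (no mt-, ribosomal, Gm-numbered or Rik names), the 15 most abundant, the defining markers, and up to 4 per list by level and by ratio; the other names were chosen after their values were seen. Alternatives changed the CPM minimum, the scaling, the depth, the limits of the choice and single cells.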

Additional observations from a re-analysis of the deposited data

How the results depend on the processing

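Against Arg1-positive cells, the 184 higher genes became 30 at a minimum of 50 CPM, 476 with no minimum, 333 with every cell weighing the same, 28 thinned to 1000 UMIs, 22 in cells of 2000 to 6000 UMIs and 85 in cells of 5% S100a8 and S100a9 or more. The 544 lower genes became 67, 948, 192 (thinned) and 199 (2000 to 6000 UMIs). The 10 lower macrophage markers became 4 thinned and 1 in 2000 to 6000 UMIs. The 4 higher granule genes became 0 with equal weights, 2 thinned, 2 and 1 at S100 limits of 1 and 2%, 2 without the 5% deepest cells, 0 in 2000 to 6000 UMIs and 0 at 5% S100. Against the class without coculture, the 596 higher genes became 320 at 50 CPM, 1211 with no minimum, 210 thinned and 1070 with any Arg1 count. The 746 lower genes became 230 at 50 CPM, 1129 with equal weights and 1321 without the macrophage limit. The median of -0.05 became -0.22 with totals lacking the genes of the choice, -0.18 with TMM, -0.20 thinned, -0.24 without the macrophage limit and 0.087 with any Arg1 count. The 7 S phase genes became 19 with no minimum, 0 thinned, 4 without the deepest cells, 19 with any Arg1 count and 0 at 5% S100. Thinned sums still had to reach the minimum of 20 UMIs, so fewer of these genes could be called there. The 5 MHC class II genes became 3 at 50 CPM, 1 thinned, 0 without cells carrying other types' markers, 1 without the macrophage limit, 9 with any Arg1 count and 3 at 5% S100. At 5% S100 there were 48 members and 27.4% of cells without Arg1, against 39.9% and 29.8% thinned to 1000 and 2000 UMIs. Of 54 gene ratios of at least 2-fold, 3 did not keep their sign under every alternative, and of 42 smaller ones 22 did not, among them Retnlg and Il1rn against Arg1-positive cells and Mmp12 against the class without coculture. The 3 were Ly6g against Arg1-positive cells, -1.02 in 2000 to 6000 UMIs and -0.17 without its leading cell, and, with any Arg1 count, Stfa1 (-0.74) and Mgl2 (3.12) against the class without coculture. Other ratios kept their sign but fell below 2-fold. Against Arg1-positive cells these included BC100530 under 10 of 16 alternatives, Cd177 under 8, Csf1r under 4 and Pglyrp1 under 3. Against the class without coculture they included Ptgs2 under 4 of 16, and Stfa1 was below 2-fold under 6 of 17 besides its change of sign. Except where the construction leaves fewer UMIs or cells, the cause was not tested. The 5% S100 and leading-cell settings were chosen after seeing the data. No paired analysis was possible because each group is 1 library. With 522295 UMIs in all members, 3 UMIs, the floor given to genes with none, are 5.74 CPM, and lower levels rest on 1 or 2 UMIs.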
